A study of Mus musculus with 6 samples.

Results

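The array probes of some mouse liver transcripts cannot be assigned to 1 gene, and the platform annotation then lists several gene symbols for the same probe set. A probe set is a group of short probes whose signals are summarised to 1 value. All probe sets whose annotation names 2 or more genes were taken, which gave 1019 of 23332 sets or 4.37%. Of these, 776 name 2 genes and 243 name 3 or more, up to 13, and 6 give a single symbol with different gene identifiers. The genes of a set are joined by a slash below, in the annotation's order. Another 14996 sets name 1 gene and 7317 have no gene name here.

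The arrays measured total RNA of whole liver from 6 mice, each on its own exon array, after 8 weeks of a high-fat diet. The Control group was 3 wild type mice, labelled as having intolerance to glucose and marked steatosis, which is fat stored in the liver. The DeltaHepKlf6 group was 3 littermates with a knockdown of KLF6, a zinc finger transcription factor, restricted to hepatocytes, labelled with improved glucose tolerance and reduced steatosis. The promoter that drives the knockdown, the sex and the age of the mice are not given in the sources used here, no group on another diet was measured, and the tissue includes cell types outside the reach of a hepatocyte knockdown. On the log2 scale Klf6 itself read 6.80, 6.09 and 5.88 in Control 1, 2 and 3 against 5.93, 5.43 and 5.45 in DeltaHepKlf6 1, 2 and 3. The groups overlap, with a difference of -0.65 (limma unadjusted p = 0.0587, adjusted p = 0.998). Hepatocyte markers were high and alike in all arrays, with a mean over 6 measured genes of 12.62 to 12.70 in Control and 12.66 to 12.74 in DeltaHepKlf6. Control 3 stood apart in 1 respect. The mean of 11 measured exocrine pancreas markers was 11.19 there against 4.77 to 5.06 in the other 5 arrays.

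Gene families arise when a gene is copied, often to the place next to it, and the copies then diverge. Young copies still share most of their sequence, so a short probe can match several of them. Mouse liver is rich in such families, since the genes for plasma protease inhibitors, cytochrome P450 enzymes and conjugating enzymes have multiplied in rodents. For these genes the annotation of a shared probe set names several members of the family. Which of the named members its probes read was not measured. All values below are log2 values after RMA, which corrects background, brings the arrays to a common distribution and summarises the probes of a set. The value of a set also depends on its probes, so values of different sets are given side by side and not ranked as amounts of RNA.

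The description as probe sets of near-identical genes held for part of them. By their symbols, 397 sets belong to a listed gene family and 137 more share the letters of a symbol stem, together 534 or 52.4%. The remaining 485 join names with no shared stem of 3 or more letters. This is a rule on symbols, and related genes such as Cd59a/Cd59b and Igtp/Irgm2 fall among them. Among those, 200 join neighbouring named genes, 84 join named genes on different chromosomes, 154 hold a predicted or clone-named gene and 8 hold a small RNA gene such as Scarna6. A further 9 are duplicates with short symbols, such as the complement proteases C1s1 and C1s2. Of 2541 gene entries 2449 could be placed in RefSeq's gene table, and the genes of 628 sets are neighbours, at most 3 places apart in gene order for each further gene. Of the 284 listed-family sets whose genes are neighbours, 38 had a mean of 7 or more.

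How alike the shared genes are outside the probes can be read from their promoters. RefSeq promoter windows of 300 bases, 250 before and 50 after the annotated start on GRCm38.p6, were aligned between protein-coding genes of the same set. The share counts identical aligned bases in 300, with no penalty for unaligned ends. Unlike windows can therefore align over a short stretch only, and a low share is not the identity of bases set side by side. Of the 437 protein-coding genes named by sets with a mean of 7 or more, 376 or 86.0% had a window. In the 42 listed-family sets with a pair, the median share of identical bases was 80.5%, and 22 of the 42 lay above 80%. In the 77 sets classed as unrelated names the median was 3.33%, and 1 lay above 80%, Igtp/Irgm2. The class follows symbols, and the 77 include duplicates such as C1s1/C1s2. A set can list a family gene beside an unrelated one, as Dhx32 beside Rps13, and such pairs are included. The replacement histone genes H3f3a and H3f3b lie on different chromosomes and encode the same histone protein. Little of their windows aligned, with identical aligned bases making up 4.33% of the 300. The probes read transcripts, and how alike those are was not measured.

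The families of serum amyloid A, serpin A1 and hepcidin are shown because their sets recur in the comparison and their genes are neighbours. The stretches are the bases just before the annotated start on GRCm38.p6, from RefSeq, all upstream of the annotated transcript, with capitals at each base unlike the aligned first sequence. Saa1 (chr7:46742981-46743140, minus strand) and Saa2 (chr7:46751672-46751832, plus strand) encode acute phase proteins carried on lipoproteins, and their windows are 95.7% identical.
Saa1: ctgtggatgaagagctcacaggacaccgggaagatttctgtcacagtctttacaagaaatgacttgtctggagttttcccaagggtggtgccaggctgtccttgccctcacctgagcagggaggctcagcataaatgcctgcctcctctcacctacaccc
Saa2: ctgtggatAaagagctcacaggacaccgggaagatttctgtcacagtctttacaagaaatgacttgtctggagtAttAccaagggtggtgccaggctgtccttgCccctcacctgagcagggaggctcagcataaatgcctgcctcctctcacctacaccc
The genes lie on opposite strands of chromosome 7, and the stretch of Saa2 has 4 bases unlike Saa1.

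The 5 serpin A1 genes encode alpha-1-antitrypsin, the plasma inhibitor of neutrophil elastase. They lie on chromosome 12 as Serpina1a (chr12:103863620-103863719, minus strand), Serpina1b (chr12:103738195-103738294, minus strand), Serpina1c (chr12:103904957-103905056, minus strand), Serpina1d (chr12:103773629-103773728, minus strand) and Serpina1e (chr12:103956955-103957054, minus strand). Against Serpina1a, the whole windows of Serpina1b, Serpina1c, Serpina1d and Serpina1e are 91.0%, 93.0%, 91.3% and 77.7% identical.
Serpina1a: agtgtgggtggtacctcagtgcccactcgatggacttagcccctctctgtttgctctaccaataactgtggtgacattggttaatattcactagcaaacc
Serpina1b: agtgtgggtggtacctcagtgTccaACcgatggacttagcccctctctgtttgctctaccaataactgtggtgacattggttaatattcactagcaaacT
Serpina1c: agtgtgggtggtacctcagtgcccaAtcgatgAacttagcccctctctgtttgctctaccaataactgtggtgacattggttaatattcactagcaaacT
Serpina1d: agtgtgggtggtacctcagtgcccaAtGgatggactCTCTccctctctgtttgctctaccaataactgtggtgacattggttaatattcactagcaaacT
Serpina1e: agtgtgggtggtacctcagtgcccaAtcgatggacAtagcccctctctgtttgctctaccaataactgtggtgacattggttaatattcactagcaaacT
In these 100 bases the copies differ from Serpina1a at 4, 3, 7 and 3 bases. Hamp (chr7:30944030-30944149, minus strand) encodes hepcidin, the liver hormone that limits iron export, and Hamp2 (chr7:30924179-30924298, minus strand) is its mouse copy, with windows 92.0% identical.
Hamp: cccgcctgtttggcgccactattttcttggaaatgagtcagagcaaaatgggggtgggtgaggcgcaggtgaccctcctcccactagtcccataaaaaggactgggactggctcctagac
Hamp2: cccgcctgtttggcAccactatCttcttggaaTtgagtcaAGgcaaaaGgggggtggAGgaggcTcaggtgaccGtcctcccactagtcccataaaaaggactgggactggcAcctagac
Here 11 of 120 bases differ. The letters CACCC, a core of the elements that Kruppel-like factors are known to bind, were searched on both strands. They occur in the windows of all 9 genes shown, and also in 57.5% of all 32851 RefSeq promoter windows and in 55.6% of the 450 windows of genes named by sets with a mean of 7 or more. Among the 180 windows of genes in family or stem sets at that level the share was 50.6%, and neither lysozyme gene, Lyz1 or Lyz2, had the letters in its window. The match is a description of letters and not a binding site.

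A mean of at least 7 over the 6 arrays was reached by 241 of the 1019 sets or 23.7%, against 29.9% of single-gene sets and 26.7% of all sets. It was reached by 56 of 397 listed-family sets or 14.1%, by 37 of 137 shared-stem sets or 27.0% and by 148 of 485 sets with unrelated names or 30.5%. Olfactory receptors, the odorant receptors of the nose, made up the largest family, with 113 sets and a median of 2.87, and vomeronasal and taste receptors held 35 sets with a median of 2.56. Of these 148 chemosensory sets, 1 reached 7, and its first gene is Ndufa10, a subunit of respiratory complex I, joined to Olfr1415 and Olfr1416. Zinc finger proteins held 44 sets with a median of 5.03, of which 2 reached 7, and histones 18 sets with a median of 5.11, of which 3 did. By the symbol patterns, 24 listed families with 131 sets had none at 7, among them the vomeronasal and taste receptors, 13 keratin sets and 11 kallikrein sets. Also among them were 9 sets matched as interferon-induced GTPases and 7 defensin sets. The pattern missed Igtp/Irgm2, with a mean of 8.96, and Gm4951/Iigp1/F830016B08Rik, also at 7 or more. Both name interferon-induced GTPases and were counted among unrelated names.

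Just under 7 were Akap2/Palm2/Pakap with 6.99 and Psme2/Psme2b, a proteasome activator subunit and its copy, with 6.998. Just over it were Polr2f/Prorsd1 with 7.01 and Snrpn/Snurf, 2 proteins of 1 transcript, with 7.07.

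Of the 15 sets with the highest values, 10 are duplicated families by their symbols and 5 were classed as unrelated names. The class follows symbols only, and the genes of Ang/Rnase4 are neighbours. Gstp2/Gstp1, the pi class glutathione transferases that conjugate reactive compounds, lay between 13.10 and 13.33 in all arrays. A serpin A1 set lay between 13.01 and 13.39, Hamp/Hamp2 between 12.46 and 12.82 and the murinoglobulins Mug1 and Mug2, plasma inhibitors of a broad range of proteases, between 12.47 and 12.69. Cyp4a10/Cyp4a32/Cyp4a31, fatty acid omega-hydroxylases, lay between 12.09 and 12.56, and 2 further sets of that subfamily, both naming Cyp4a12a and Cyp4a12b, lay between 11.76 and 12.28 and between 11.20 and 12.01. Nat8f2/Nat8f4 averaged 12.01, Rdh7/Rdh1 11.87 and the Cyp3a11 group 11.82. The other 5 joined Apoc1 with Gcc1 at 13.17, Apoa1 with Tcea1 at 13.05, Tecr with Fthl17a at 12.51, Ang with Rnase4 at 11.90 and Cp with Rex2 at 11.86. Apoc1, Apoa1 and Cp encode plasma proteins of the liver, 2 apolipoproteins and ceruloplasmin.

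Sets that name the same genes differed widely in value. There were 80 such gene lists with 168 sets, and the gap between the highest and lowest mean in a list had a median of 1.23. For the 28 lists with a set at 7 or more the median gap was 1.98, and 25 of the 28 had a gap over 1. The Cyp3a11 group, named for the main drug-metabolizing P450 of mouse liver, had 1 set at 11.82 and another at 3.42, a gap of 8.395. Gstp1 and Gstp2 had sets at 13.19 and 5.57, and C1s1 and C1s2 at 11.08 and 6.56. Even both sets of Hamp and Hamp2, at 12.67 and 8.44, lay 4.23 apart. The value of a shared set thus depended on which of the sets was read.

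DeltaHepKlf6 was compared with Control to ask which genes depend on Klf6 in liver on this diet. No multi-gene set passed the test. Of the 241 sets, 0 had a Benjamini-Hochberg adjusted p under 0.05 in limma, with the smallest at 0.998, and 0% of all 23332 sets did. At an unadjusted p under 0.05 stood 2 of the 241, both lower, where 3.21% of all sets and 1.43% of all sets with a mean of 7 or more did, and 1.61% and 0.978% in the lower direction. On the deposited scale the groups did not overlap in 7 sets or 2.90%, 6 lower and 1 higher. That share is below the background, which was 6.72% of all sets and 4.89% of sets with a mean of 7 or more. For lower values the background was 3.67% and 3%, and for higher values 3.05% and 1.89%. After quantile normalization 13 sets did not overlap, and the background share for that scaling is not given. Among the 13, Brcc3/Zscan12, Mfap1b/Mfap1a, Eny2/Gm16373, Wdr76/Serf2/Hypk and Mrps22/Capza1 were newly higher in DeltaHepKlf6. The split by direction thus depended on the scaling.

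The median log2 difference over the 241 was -0.05, between -0.04 over all sets and -0.08 over all 6236 sets with a mean of 7 or more. The difference was negative in 146 sets or 60.6% and positive in 94. The negative share was 64.5% over all sets with a mean of 7 or more and 67.9% over single-gene sets at that level. The sign counts by role below stand beside these shares. After quantile normalization 107 or 44.4% were negative and 134 positive, with a median of 0.03, and the sign turned in 40 sets, none with a difference above 0.09 in size. The median was 0.02 without DeltaHepKlf6 3 and 0.005 without Control 1, so the direction over all sets rested on these arrays. DeltaHepKlf6 3 was the lowest of the 6 arrays in 111 of the 241 sets and Control 3 in 68, while Control 1 was the highest in 79. Among the families whose sign turned were both Akr1c sets, 3 Rdh sets, the Cyp3a11 group, Cyp2a12/Cyp2a22, Cyp2d10/Cyp2d11/Cyp2d9, Acnat and the Ugt1a set. Other sets with a difference below 0.1 in size, such as Hamp/Hamp2, kept their sign under each scaling. No direction is read here from a difference below 0.1 in size. The counts by role below follow the deposited scale.

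Plasma proteins secreted by hepatocytes gave 11 sets, 5 with a negative and 6 with a positive difference and a median of 0.02. Serum amyloid A had the largest differences. The set Saa1/Saa2 read 11.58, 11.48 and 11.08 in Control 1, 2 and 3 against 11.80, 10.78 and 9.28 in DeltaHepKlf6 1, 2 and 3. The set Saa2/Saa1 read 11.60, 10.14 and 9.67 in Control against 11.10, 8.96 and 7.16 in DeltaHepKlf6. In both sets DeltaHepKlf6 3 was the lowest array and DeltaHepKlf6 1 lay among or above the controls, so the groups overlap. The differences were -0.76 ± 0.61 and -1.40 ± 1.03 (SE, n = 3 per group; limma adjusted p = 0.998 for each). Without DeltaHepKlf6 3 they were -0.09 and -0.44, and without DeltaHepKlf6 1 -1.35 and -2.41.

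The other plasma protein families spread over less than 1 log2 unit in each set. The first serpin A1 set read 13.20, 13.39 and 13.01 in Control against 13.23, 13.07 and 13.09 in DeltaHepKlf6, and its 3 sets differed by -0.07, 0.07 and 0.26. The murinoglobulin set read 12.59, 12.63 and 12.47 against 12.69, 12.52 and 12.63, a difference of 0.05 ± 0.13 (SE). All of these groups overlap. Hamp/Hamp2 differed by 0.04 ± 0.15 (SE) and Hamp2/Hamp by 0.30 ± 0.19 (SE). The latter read 8.19, 8.43 and 8.24 in Control against 8.36, 8.50 and 8.91 in DeltaHepKlf6, where only DeltaHepKlf6 1 fell within the control values. The complement sets C4b/C4a and C1s1/C1s2, which hold proteins of the classical pathway, both differed by -0.21, with C4 at 10.22, 10.09 and 9.88 against 9.94, 10.04 and 9.57.

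Cytochrome P450 enzymes of the 2A, 2C, 2D, 3A and 4A subfamilies, which oxidise drugs, steroids and fatty acids, gave 15 sets with a median difference of 0.03. Of these 7 were negative and 8 positive, and all lay between -0.36 and 0.21. The 6 Cyp2c sets averaged 10.05, 10.27 and 9.83 in Control 1, 2 and 3 against 10.32, 9.98 and 10.10 in DeltaHepKlf6 1, 2 and 3. The Cyp3a11 group read 11.63, 11.94 and 11.90 against 11.65, 12.04 and 11.75. In both families the values of the groups intermingle. Cyp2d40/Cyp2d10/Cyp2d9 read 9.57, 9.92 and 9.41 in Control against 9.45, 9.47 and 8.89 in DeltaHepKlf6, a difference of -0.36 ± 0.23 (SE) that was -0.17 without DeltaHepKlf6 3, while Cyp2d10/Cyp2d11/Cyp2d9 differed by -0.04 ± 0.24 (SE). The set of Cyp2d9 alone, which both list, differed by -0.13 ± 0.15 (SE). Cyp2a4/Cyp2a5, steroid and coumarin hydroxylases, differed by -0.32 ± 0.26 (SE) and Cyp2a12/Cyp2a22 by -0.06 ± 0.15 (SE).

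Conjugation and hydrolysis gave 9 sets, 7 negative and 2 positive, with a median of -0.16. Carboxylesterases, which split ester bonds of drugs and lipids, had the only set of this role without overlap on the deposited scale. Ces3b/Ces3a read 11.87, 11.67 and 11.59 in Control against 11.57, 11.52 and 11.35 in DeltaHepKlf6. Every control lay above every DeltaHepKlf6 mouse by a narrow margin, and the groups overlap once the arrays are set to equal medians. The difference was -0.23 ± 0.14 (SE; limma unadjusted p = 0.159, adjusted p = 0.998), and -0.15 without Control 1. Ces3b has a set of its own, which read 11.46, 11.14 and 11.14 against 11.29, 11.21 and 10.94 and overlaps, with a difference of -0.10 ± 0.17 (SE).

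UDP-glucuronosyltransferases, which attach glucuronic acid, gave Ugt2b5/Ugt2b38 with a mean of 11.22 in Control and 11.46 in DeltaHepKlf6 and a difference of 0.24 ± 0.18 (SE). The Ugt1a set, which names 8 genes with a shared 3' end, differed by -0.07 ± 0.14 (SE), and Ugt3a2/Ugt3a1 by -0.16 ± 0.13 (SE). Gstp2/Gstp1 read 13.24, 13.20 and 13.17 in Control against 13.10, 13.33 and 13.11 in DeltaHepKlf6, a difference of -0.02 ± 0.13 (SE), and Gstm6/Gstm3 differed by -0.27 ± 0.39 (SE). A set of the selenium-binding proteins Selenbp1 and Selenbp2 had the widest difference of this group. Selenbp2/Selenbp1 read 9.98, 9.96 and 9.49 in Control against 9.39, 9.65 and 8.45 in DeltaHepKlf6, and the other set 10.05, 9.98 and 9.84 against 9.83, 10.18 and 9.11. DeltaHepKlf6 3 was the lowest array in both, and both pairs of groups overlap. The differences were -0.65 ± 0.34 and -0.25 ± 0.28 (SE), and -0.29 and 0.05 without DeltaHepKlf6 3.

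Oxidoreductases of steroids and retinoids gave 8 sets with a median of -0.035 and a range of -0.24 to 0.16. Retinol dehydrogenases of the Rdh1, Rdh7, Rdh9 and Rdh16 cluster averaged 10.58, 10.43 and 10.31 in Control against 10.33, 10.51 and 10.25 in DeltaHepKlf6 over 4 sets. The aldo-keto reductases Akr1c12 and Akr1c13 averaged 9.49, 9.60 and 9.12 against 9.44, 9.49 and 9.16 over 2 sets. In neither family did the groups separate. Hsd3b5/Hsd3b4, 3-beta-hydroxysteroid dehydrogenases, spanned 7.46 to 8.67 with a difference of -0.23 ± 0.35 (SE), and Hsd3b2/Hsd3b6 one of 0.16 ± 0.25 (SE).

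Enzymes of acyl-CoA and small metabolites gave 9 sets, 7 negative and 2 positive, with a median of -0.12. Bhmt2/Bhmt, which remethylate homocysteine, read 9.66, 8.99 and 9.21 in Control against 8.83, 9.47 and 8.51 in DeltaHepKlf6, a difference of -0.35 ± 0.30 (SE). Acot1/Acot2, acyl-CoA thioesterases of the cytosol and mitochondria, read 8.43, 7.76 and 8.03 against 8.07, 7.93 and 7.37, a difference of -0.28 ± 0.26 (SE). In both sets the highest value was that of Control 1 and the lowest that of DeltaHepKlf6 3, without which the differences were -0.14 and -0.07. The peroxisomal thiolases Acaa1b and Acaa1a differed by -0.19 ± 0.16 (SE), and Acot9/Acot10 by 0.08 ± 0.20 (SE).

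Families of immune and blood cells gave 15 sets, 10 negative and 5 positive, with a median of -0.14. The class II set H2-Eb1/H2-Eb2, which encode beta chains that present peptides to T cells, read 8.39, 9.24 and 8.15 in Control against 7.92, 7.94 and 7.06 in DeltaHepKlf6. Every control lay above every DeltaHepKlf6 mouse. The difference was -0.95 ± 0.37 (SE; limma unadjusted p = 0.0406, adjusted p = 0.998), and -0.63 without Control 2. Class I sets were mixed. The set naming H2-D1, H2-K1 and H2-Q genes read 10.69, 10.37 and 10.43 against 9.81, 10.54 and 9.45, a difference of -0.56 ± 0.29 (SE) with DeltaHepKlf6 2 among the controls, and of -0.32 without DeltaHepKlf6 3. H2-K1/H2-K2/H2-D1 differed by -0.15 ± 0.28 (SE) and H2-T22/H2-T10/H2-T9/H2-T17 by 0.17 ± 0.35 (SE).

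Lysozymes, which break bacterial cell walls and mark myeloid cells, read 8.99, 8.48 and 8.00 in Control against 8.42, 8.26 and 7.46 in DeltaHepKlf6. The groups overlap, with DeltaHepKlf6 1 and 2 above Control 3, and the difference was -0.44 ± 0.35 (SE). Cd1d1/Cd1d2, which present lipids, differed by -0.38 ± 0.25 (SE), the chemokines Ccl6/Ccl9 by -0.27 ± 0.24 (SE) and the Fc receptors Fcgr2b/Fcgr3 by -0.11 ± 0.16 (SE). Without DeltaHepKlf6 3 the differences were -0.15 for the lysozymes, -0.12 for Cd1d and -0.04 for Ccl6/Ccl9. In whole liver, fewer cells of a type and less RNA per cell cannot be told apart. All 12 measured macrophage and Kupffer cell markers had a negative difference, with a median of -0.45. Their mean was 7.49 to 7.97 in Control and 6.83 to 7.59 in DeltaHepKlf6, and its part in these family differences was not tested. Negative differences were also found in 6 of 8 neutrophil, 6 of 8 T and NK cell and 4 of 5 measured B and plasma cell markers. None of those markers had a mean of 7 or more. Of 6 measured hepatocyte markers 2 were negative and 4 positive. The beta globins Hbb-b1/Hbb-b2 read 8.95, 9.43 and 8.31 against 9.26, 8.72 and 8.30, a difference of -0.14 ± 0.36 (SE), and 5 measured red cell markers averaged 5.04 to 5.31 against 5.03 to 5.19. Of these, Alas2, the haem synthesis enzyme of red cell precursors, alone had a mean of 7 or more. It read 8.74, 8.50 and 8.04 against 7.98, 8.19 and 7.65, a difference of -0.49 with overlapping groups, and its part in the globin values was not tested. On the positive side stood Clec2d/Clec2i/Klrb1-ps1, ligands of natural killer cell receptors with a pseudogene, with 0.27 ± 0.21 (SE).

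Chromatin, translation and other housekeeping families gave 28 sets, 14 negative and 14 positive, with a median of -0.01. Ribosomal proteins, whose processed pseudogenes are spread over the genome, averaged 8.11, 7.91 and 7.96 in Control against 8.07, 8.09 and 7.68 in DeltaHepKlf6 over 5 sets. The 3 histone sets differed by 0.03, 0.06 and 0.30. Neither family separated the groups. Ncoa4/Ncoa4-ps, a receptor for the breakdown of ferritin and its pseudogene, read 8.65, 8.84 and 8.09 in Control against 9.54, 9.05 and 8.55 in DeltaHepKlf6, a difference of 0.52 ± 0.31 (SE) that was 0.27 without DeltaHepKlf6 1. Rbm12b2/Rbm12b1, RNA-binding protein genes, read 6.77, 7.28 and 7.30 against 8.30, 6.87 and 8.05, a difference of 0.62 ± 0.40 (SE), with DeltaHepKlf6 2 below 2 of the controls. The second Rbm12b set, with a mean of 6.26, differed by 0.63. Trmt112/Trmt112-ps1, an activator of methyltransferases and its pseudogene, differed by -0.51 ± 0.31 (SE), with DeltaHepKlf6 2 above every control, and by -0.26 without DeltaHepKlf6 3.

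The 148 sets classed by symbol as unrelated names had a median difference of -0.055. They include 3 duplicates with short symbols, C1s1/C1s2, Cd1d1/Cd1d2 and M6pr/M6pr-ps, which were also counted by role above. A predicted or clone-named gene is named by 45 of them. On the deposited scale the groups did not overlap in 5 of the 148 or 3.38%. That is below the 4.89% of all sets with a mean of 7 or more. Nr1d1/Thra lists a circadian repressor and the thyroid hormone receptor alpha, whose genes are neighbours. It read 9.92, 8.82 and 8.23 in Control against 8.07, 8.20 and 8.02 in DeltaHepKlf6, and the controls spread wider than the difference between the means. The difference was -0.89 ± 0.41 (SE; limma unadjusted p = 0.0730, adjusted p = 0.998), and -0.43 without Control 1. The set of Thra alone read 6.64, 6.51 and 6.39 against 6.32, 6.66 and 6.33, a difference of -0.08 ± 0.16 (SE).

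Ube2g2/Sumo3, neighbours that encode a ubiquitin-conjugating enzyme and a ubiquitin-like modifier, read 7.94, 7.41 and 7.44 in Control against 6.85, 7.35 and 6.66 in DeltaHepKlf6. The groups do not overlap, with DeltaHepKlf6 2 only just below the controls, and the difference was -0.64 ± 0.24 (SE; limma unadjusted p = 0.0371, adjusted p = 0.998). Atg16l1/Scarna6, an autophagy gene with a small RNA of the Cajal body, differed by -0.41 ± 0.21 (SE) and by -0.23 without Control 1. Phyhd1/Lrrc8a, the latter a subunit of a volume-regulated anion channel, differed by -0.26 ± 0.14 (SE), and its groups overlap after quantile normalization. On the deposited scale the set higher in every DeltaHepKlf6 mouse was Pcgf3/Rpl34, a Polycomb group protein and a ribosomal protein gene on different chromosomes. It read 7.08, 7.17 and 7.03 in Control against 7.47, 7.55 and 7.19 in DeltaHepKlf6. Its difference was 0.31 ± 0.15 (SE; limma unadjusted p = 0.0803, adjusted p = 0.998).

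How far a shared set stands for its genes could be set against other sets. Differences under 0.1 in size, among which some signs turned between scalings, were left out of the comparison of signs. That limit was chosen after the values were seen. Of the 10 gene lists with all of their sets at 7 or more, 5 had only differences of at least 0.1. All 5 had the same sign in each of their sets, serum amyloid A and Selenbp among them. Without that limit 8 of the 10 lists had the same sign, with serpin A1 and Cyp2c37/Cyp2c50/Cyp2c54 mixed. Of the 28 lists with any set at 7 or more, 18 had the same sign. There were 54 pairs of a shared set and a set of 1 of its genes alone, of which 21 had both at 7 or more. In 6 of the 21 both differences were at least 0.1 in size, and 3 of the 6 had the same sign. These were Ces3b, Cyp2d9 and Tor1aip2, against Ccl9, Zfp36l1 and Gstz1 with opposite signs. The shared sets of Tor1aip2, Zfp36l1 and Gstz1 join unrelated names, and those of the other genes are family sets. Without the limit on size, 10 of the 21 pairs had the same sign. Ccl6/Ccl9 differed by -0.27 and Ccl9 alone by 0.15.

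Below a mean of 7, 778 sets remained, of which 23 or 2.96% had an unadjusted p under 0.05 in limma, below the 3.21% over all sets, and 0 an adjusted one. The families next named were chosen after their values were seen. Digestive proteases of the exocrine pancreas were high in 1 mouse. The set 1810049H19Rik/Try4, the latter a trypsin, read 11.24 in Control 3 and 5.45 to 5.90 in the other 5 arrays. Ctrc/Cela2a, a chymotrypsin and an elastase, read 9.86 there and 6.02 to 6.45 elsewhere. The kallikrein set Klk1b5/Klk1 read 9.17 there and 4.32 to 5.95 elsewhere. These sets move with the pancreas markers in Control 3, and the part of that array's pancreas RNA in other differences was not tested.

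A dim olfactory receptor set held the largest positive difference of all sets. Olfr441/Olfr237/Olfr444 read 2.74, 1.70 and 1.47 in Control against 5.07, 4.98 and 3.76 in DeltaHepKlf6, a difference of 2.63 (limma unadjusted p = 0.00126, adjusted p = 0.998), and Olfr320/Olfr316/Olfr318 read 4.82, 5.72 and 5.20 against 2.77, 4.27 and 3.70. The groups do not overlap in either set, and the directions are opposite. The guanylate-binding proteins Gbp4, Gbp6 and their neighbours, GTPases induced by interferon, gave a set of 6 genes that read 6.19, 6.06 and 5.95 in Control against 5.76, 5.21 and 5.40 in DeltaHepKlf6. That set did not overlap between groups, with a difference of -0.61 (limma unadjusted p = 0.0145, adjusted p = 0.998), while 2 other sets of the same cluster differed by 0.10 and -0.06.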

How the data were processed

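Liver RNA of 6 mice was measured on Affymetrix mouse exon arrays. The submitters' processing notes name limma, RMA and Affymetrix Expression Console without versions. No genome build of the array is stated in the labels. The deposited values are log2 values, a scale read from their range of 0.65 to 14.35, with array medians of 5.49 to 5.55 and correlations between arrays of 0.953 to 0.974. The number of arrays limits the precision. Nothing says how the animals were housed or bred beyond being littermates.

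Gene symbols came from the platform annotation, which can be old. A set belongs to a listed family where over 50% of its symbols match that family's pattern, or else to a stem of letters that over 50% of its symbols share. Gene order and promoters came from RefSeq (GRCm38.p6). DeltaHepKlf6 was compared with Control in limma 3.58.1 (R 4.3.3) over all 23332 sets with Benjamini-Hochberg adjustment. Python 3.11.15, pandas 2.3.3 and Biopython 1.88 did the rest. On simulated data of 23332 sets for this comparison, 21 of 100 changes of log2 size 1 and 85 of 100 of log2 size 2 were recovered, with 4 false calls. The simulated noise was normal and independent between sets, without the shifts of whole arrays seen here, so these counts hold for that setting only.

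Sets named were the 15 of highest mean, up to 12 per direction without overlap between groups, the set of highest mean in each family and 2 on each side of the limit. The members and lists were chosen with earlier results of these data known. The roles, the gene order and promoter checks, the restriction to protein-coding genes (chosen after the promoter coverage was seen) and the other sets named were chosen after values were seen. Alternatives were another variance model, quantile normalization, filters on dim sets, array weights, equal array medians, a block for the replicate number, each array left out, other limits and family sets alone.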

Additional observations from a re-analysis of the deposited data

How the results depend on the processing

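No set had an adjusted p under 0.05 in limma under any alternative run, against 2 sets at an unadjusted p under 0.05 and 7 without overlap on the deposited scale. The count at an unadjusted p was 5 with array weights, 5 of 364 sets at a mean of at least 6, 1 of 162 at a mean of at least 8, and 1 of 93 for family and stem sets alone. Leaving out single arrays gave 0 (without Control 1) to 18 (without DeltaHepKlf6 2). The count without overlap was 13 after quantile normalization, 13 at a mean of at least 6, 4 at a mean of at least 8, 2 for family and stem sets alone, and 13 to 66 with an array left out, where fewer samples make separation easier. The cause of the other shifts was not tested. The shares over all sets under the alternatives are not given, so these counts are not read as a result about the shared sets. With the replicate number as a block, 4 sets had an unadjusted p under 0.05. Same-numbered mice deviated together with correlations of -0.13, -0.17 and 0.21, so the numbers were not taken as pairs. The values for single named sets under alternatives, 559 in all, were labelled unchanged. For sets without overlap this meant that the sign held and the adjusted p in limma stayed at 0.05 or more. A lost gap between the groups, as for Ces3b/Ces3a, was not counted. For the others it meant a move smaller than the spread between replicates. Several alternatives leave the difference as it was, and leaving out 1 array cannot move it by that spread, so this tally tests little. Of the values for families, 775 moved by less than the spread between replicates and 5 moved further. The small number of arrays limits what can be called, and dim sets carry little signal over background.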
